A study of Mus musculus with 17 samples.

Results

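The genes described here are the well-expressed predicted gene models of the mouse annotation, those whose symbol is Gm followed by a number, in FACS-sorted hepatocytes. They were chosen by that symbol and by a mean level of at least 5 CPM (counts divided by the library's total and multiplied by 1000000) over all 17 libraries. Of 4872 Gm-named models in a table of 23461 genes, 258 met both conditions and are called members below. The Gm4673, Gm9978 and Gm10036 models were just inside the threshold, at 5.01, 5.04 and 5.05 CPM, and Gm12693, Gm6505 and Gm7935 just outside, at 4.96, 4.93 and 4.92 CPM. Because the rule uses measured levels, the mean level of a member is a description and no result. The rule also bears on differences between groups. At least 5 CPM was averaged by 192 members in all 4 groups, by 17 in knockout hepatocytes alone and by 18 in wild-type hepatocytes alone. A member admitted by the level of 1 genotype had to differ between genotypes. Likewise, a member admitted by the level of treated or of untreated libraries alone had to differ between these.

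The study asked how hepatocytes respond to liver injury by carbon tetrachloride (CCl4, a liver toxin) with and without the Hippo pathway co-activators Yap (Yap1) and Taz (Wwtr1). The groups were Yap/Taz knockout mice given CCl4 (3 libraries), untreated Yap/Taz knockout mice (4), wild-type mice given CCl4 (5) and untreated wild-type mice (5). All were males 2 to 3 months old. CCl4 was dosed at 1 µg/g, 7 times at intervals of 3 days, and the cells were taken 3 days after the last dose. The sources used here do not give the driver, timing or completeness of the knockout, the strain of either genotype or the number of mice behind a library, so genotype and any strain difference cannot be told apart. Yap1 was 0.536 to 1.97 CPM in CCl4-treated and 1.21 to 8.04 CPM in untreated knockout libraries, against 42.5 to 64.4 CPM in CCl4-treated and 37.4 to 73.5 CPM in untreated wild-type libraries. Wwtr1 was 2.72 to 7.09 and 1.20 to 2.51 CPM in the same knockout groups, against 15.2 to 23.4 and 9.86 to 18.9 CPM in wild type, and both genes passed the test as lower in knockout with and without CCl4.

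Library totals were 11266420 to 24775863 counts (median 14786573). Mitochondrially encoded genes took 34.26% of counts in CCl4-treated knockout library 3 and 30.75% in untreated wild-type library 5. Sums over marker lists, over all members and over their gene types below are CPM on library totals. Levels of single genes, and sums over copies of a gene or gene family, are CPM after TMM scaling of the totals (trimmed mean of M values). Hepatocyte markers (6 genes, among them Alb and Ttr) summed to 80600 to 140000 CPM in CCl4-treated knockout, 89000 to 111000 CPM in untreated knockout, 104000 to 126000 CPM in CCl4-treated wild-type and 57100 to 117000 CPM in untreated wild-type libraries, and all 6 were detected in every group. Markers of other cells were also present. The macrophage, stellate, endothelial and cholangiocyte sums had their highest group median in CCl4-treated knockout libraries, though some ranges overlapped. The 12 macrophage markers summed to 153 to 3490 CPM there (median 388), against 24.3 to 63.4 CPM in untreated knockout, 56.6 to 141 CPM in CCl4-treated wild-type and 16.5 to 65.1 CPM in untreated wild-type libraries. The 10 stellate cell and myofibroblast markers summed to 90.6 to 167 CPM in CCl4-treated knockout, 6.31 to 8.96 CPM in untreated knockout, 18.8 to 77.8 CPM in CCl4-treated wild-type and 3.32 to 14.5 CPM in untreated wild-type libraries, with Pdgfrb and Acta2 at 0 in untreated knockout and Acta2 at 0 in untreated wild-type libraries. The 10 endothelial markers summed to 129 to 599, 17.1 to 30.9, 35.6 to 190 and 6.83 to 49.3 CPM in the same order of groups, the 6 cholangiocyte markers to 54.3 to 72.5, 20.5 to 61.3, 43.2 to 70.4 and 7.28 to 33.7 CPM, and lymphocyte markers to at most 2.43 CPM in any library. Neutrophil markers reached at most 24.6 CPM, in a CCl4-treated knockout library. The sum of 7 erythroid and platelet markers went the other way, with medians of 62.4, 117, 88.1 and 90.1 CPM in that order of groups. The wild-type ranges overlapped, at 69.1 to 121 CPM after CCl4 and 87.8 to 106 CPM untreated. Hba-a1, Hbb-bs, Ppbp and Pf4 were at 0 in untreated knockout, and Hba-a1, Hbb-bs, Hbb-bt and Ppbp in untreated wild-type libraries. No marker of this list was at 0 throughout a CCl4-treated group, so the untreated sums rest on the remaining genes. The part of these cells in the results after CCl4 was not tested, and in bulk samples fewer cells of a type and less RNA per cell cannot be told apart.

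A processed pseudogene arises when a cell's reverse transcriptase copies a messenger RNA back into the genome, so it lacks introns and can differ from the gene it copies by a few bases. Genes with abundant messenger RNA in the germ line, such as those of ribosomal proteins and glycolytic enzymes, have left many such copies in mouse and human genomes. A long noncoding RNA model is transcribed but carries no annotated reading frame, and an antisense model lies on the strand opposite another gene. Short reads cannot always be placed between a gene and a near-identical copy, or, where counting ignores strand, between a gene and its antisense partner.

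The stretches below show how little separates 5 pseudogene members from the gene each matches best, and are printed because these 5 were detected mainly in knockout libraries, as described further on. Each pair is 90 bases, 5′ to 3′, with the bases that differ in capitals, taken from GENCODE M21 transcripts on GRCm38/mm10. Among ungapped stretches of the coding sequence with matching ends, that with the most differences was taken, so it is not typical of the whole length. The member stretches lie at chr15:52478019-52478108 on the minus strand (Gm10020), chr6:7982866-7982955 minus (Gm9825), chr13:75954179-75954268 plus (Gm6311), chr10:42054198-42054287 minus (Gm9855) and chr5:130188412-130188501 plus (Gm15920).
Gm10020: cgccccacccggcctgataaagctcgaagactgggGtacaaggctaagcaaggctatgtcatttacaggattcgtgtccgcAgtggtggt
Rpl15: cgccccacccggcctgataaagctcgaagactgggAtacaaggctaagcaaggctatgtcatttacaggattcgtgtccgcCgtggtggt
Gm9825: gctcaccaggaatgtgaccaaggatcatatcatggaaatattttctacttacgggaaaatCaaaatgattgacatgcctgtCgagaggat
Rnps1: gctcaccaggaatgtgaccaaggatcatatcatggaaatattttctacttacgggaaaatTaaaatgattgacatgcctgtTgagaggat
Gm6311: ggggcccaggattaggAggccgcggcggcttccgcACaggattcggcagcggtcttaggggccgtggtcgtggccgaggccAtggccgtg
Rps2: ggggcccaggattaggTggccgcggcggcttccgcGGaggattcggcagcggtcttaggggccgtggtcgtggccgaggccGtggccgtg
Gm9855: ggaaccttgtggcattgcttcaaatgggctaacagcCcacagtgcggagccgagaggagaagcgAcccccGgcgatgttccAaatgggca
Tdg: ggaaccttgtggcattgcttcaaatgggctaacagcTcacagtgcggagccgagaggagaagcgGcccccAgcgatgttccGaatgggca
Gm15920: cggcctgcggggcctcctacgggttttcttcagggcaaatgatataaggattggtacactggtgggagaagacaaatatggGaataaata
Ndufa12: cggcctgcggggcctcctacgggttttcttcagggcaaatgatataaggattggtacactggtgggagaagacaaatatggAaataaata
Counted from 1 at the first coding base of the named gene, with that gene's base first, the differences are A156G and C202A from Rpl15 to Gm10020, T561C and T582C from Rnps1 to Gm9825, T60A, G79A, G80C and G125A from Rps2 to Gm6311, T1128C, G1156A, A1162G and G1173A from Tdg to Gm9855, and A147G from Ndufa12 to Gm15920.

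Other members had no difference to show, and 2 such sequences are given for the abundance they stand behind. The first 90 bases of Gm10222, at chr1:24612611-24612700 on the minus strand of GRCm38/mm10, are the same as coding bases 1 to 90 of mt-Nd4l, a subunit of mitochondrial complex I. The models Gm24245, Gm23935 and Gm24270, all annotated as miRNA genes, share 1 sequence of 57 bases at chr4:139338304-139338360 (plus), chr16:11144125-11144181 (plus) and chr9:56223715-56223771 (minus). No base is in capitals because none differs.
Gm10222: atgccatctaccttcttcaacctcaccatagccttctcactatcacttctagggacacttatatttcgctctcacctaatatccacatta
Gm24245: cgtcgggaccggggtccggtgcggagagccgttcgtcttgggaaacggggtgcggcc

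By annotated gene type the members were mostly pseudogenes. There were 161 pseudogenes (62.4% of members), of which 126 were processed, 14 transcribed processed, 15 unprocessed, 2 transcribed unprocessed and 4 without a subtype. A further 49 (19%) were annotated as protein coding, 43 (16.7%) as noncoding RNA and 5 (1.94%) as miRNA genes. The noncoding class held 19 antisense, 14 lincRNA and 8 processed_transcript models, 1 sense_intronic model and 1 model still to be experimentally tested. Of the pseudogenes, 134 had a single exon. The median of the members' mean levels was 15.2 CPM for pseudogenes, 12.5 CPM for coding, 10.9 CPM for noncoding and 104 CPM for miRNA models.

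**Figure D1:**
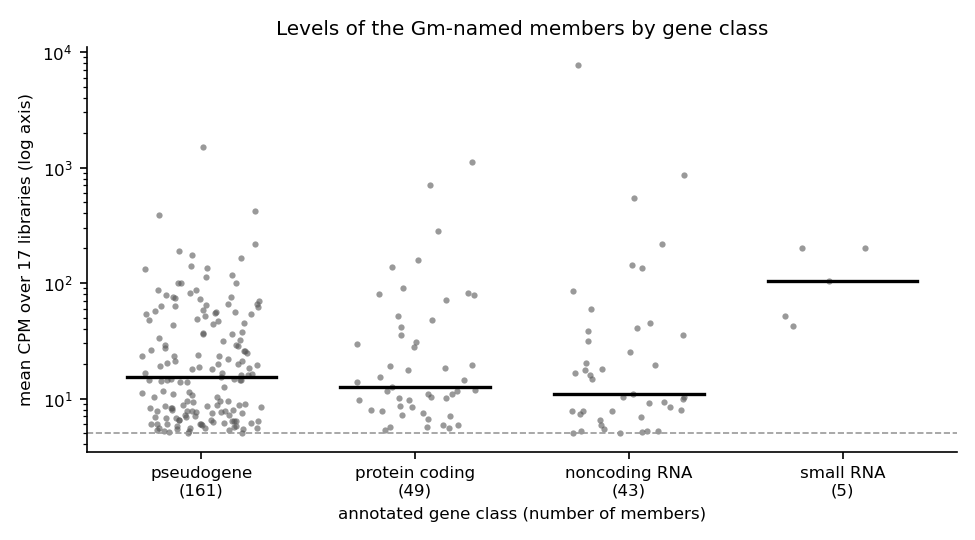
Mean CPM over 17 libraries (vertical log axis) of each of the 258 members, 1 point per member, by annotated gene class. Black bars are class medians (15.2, 12.5, 10.9 and 104 CPM from left to right) and the dashed line is the 5 CPM threshold of the rule; 1 noncoding model, Gm42418, stands highest at 7660 CPM.

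Of the 161 pseudogenes, 159 aligned to a transcript of a named coding gene, and 141 did so closely, at 95% identity or more over at least 80% of their length. These 141 matched 124 different genes, with a median identity of 99.59%, and 36 of them were identical to their gene along their whole length. A window of 50 bases was used to ask how much of a member's sequence also occurs in another annotated gene, on either strand. Genes that overlap the member at its own locus were included, so the share is not the rate of reads with more than 1 possible place. The median share of a member's windows also found in another annotated gene was 87.1% for pseudogenes, 87.5% for coding, 27.2% for noncoding and 100% for miRNA models. Of the 49 coding members, 13 were full-length close copies of a gene elsewhere and 17 shared at least 50% of their exonic bases with another gene on the same strand. Of the 43 noncoding members, 24 shared exonic bases with a gene on the opposite strand, 12 of them at least 50%. How reads with more than 1 possible place were counted, and whether strand was used, is not given in the sources used here, so the level of a near-identical copy or of an antisense model is uncertain as to its locus.

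Grouped by the gene they match, 37 pseudogene members were copies of cytosolic ribosomal protein genes, 18 of nuclear genes for mitochondrial proteins, 12 of RNA-binding and splicing genes, 10 of ubiquitin, SUMO and proteasome genes, 5 of glycolytic enzyme genes and 4 of mitochondrially encoded genes. The summed level of the 37 ribosomal protein copies was 1444, 1801 and 3879 CPM at its lowest, median and highest in CCl4-treated knockout libraries and 1738, 2120 and 2350 CPM in untreated knockout libraries. In wild type the same sum was 1536, 1634 and 2378 CPM after CCl4 and 1983, 2124 and 2232 CPM untreated, so the groups overlapped. After CCl4, none of the 37 passed the test in either genotype, where 19% of all genes tested passed in knockout and 0.853% in wild type. Between genotypes 2 of the ribosomal protein copies passed as higher in knockout, Gm10020 and Gm6311, both with and without CCl4, and none as lower, where 7.62% of all genes passed as higher after CCl4 and 0.583% untreated. Both met the level rule through knockout libraries, so their number is a description. The 10 ubiquitin, SUMO and proteasome copies, which include Gm1821, and the 5 glycolytic copies, which include Gm5559, had no call in any comparison, where 0.853% to 19% of all genes were called.

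Some copies stood higher per kilobase of exon than the gene they match. Exon length here joins the exons of all annotated transcripts of a gene, which lowers the value of a gene with many transcripts. Gm10123, on chromosome 9 (96895658 to 96896147, plus strand), is identical over its whole length to Ppia, the cyclophilin A gene. Per kilobase of exon it stood at 910.2 CPM in CCl4-treated knockout, 849 CPM in untreated knockout, 834 CPM in CCl4-treated wild-type and 842 CPM in untreated wild-type libraries, while Ppia itself stood at 2.43, 4.81, 3.94 and 2.93 CPM in the same groups. Gm5559, a copy of the glycolytic enzyme gene Gapdh with 99.9% identity, averaged 396, 409.5 and 345 CPM per kilobase in CCl4-treated knockout, untreated knockout and CCl4-treated wild-type libraries and 408 CPM in untreated wild-type libraries, and Gapdh 268, 292, 237 and 265 CPM per kilobase in those groups. That length is 4133 bases for Gapdh and 1002 bases for Gm5559, so the order of this pair depends on the length used. Gm10222 had 968, 469.9 and 3306 CPM in CCl4-treated knockout libraries and 709, 986, 1462 and 1291 CPM in untreated knockout libraries. In wild type Gm10222 had 1406, 318, 1466, 205 and 1160 CPM after CCl4 and 2189, 3732, 1644, 713 and 6246 CPM untreated. Per kilobase of exon Gm10222 averaged 5378 CPM in CCl4-treated knockout, 3782 CPM in untreated knockout, 3099 CPM in CCl4-treated wild-type and 9881 CPM in untreated wild-type libraries, and mt-Nd4l, the gene it copies, 15.2, 6.46, 43.6 and 19.8 CPM per kilobase in those groups. Gm10222 was highest of all in untreated wild-type library 5 and highest among CCl4-treated libraries in knockout library 3, the 2 libraries richest in mitochondrially encoded counts, and its groups overlapped in every comparison.

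The highest member, Gm42418, is a lincRNA model on chromosome 17 (39846958 to 39848788, plus strand) whose exon lies 99.51% opposite an annotated ribosomal RNA gene, CT010467.1. It had 2352, 4135 and 10840 CPM in CCl4-treated knockout libraries, 9052, 11160, 536 and 1401 CPM in untreated knockout libraries and 3944, 1574, 2275, 1116 and 4333 CPM in CCl4-treated wild-type libraries. Untreated wild-type libraries 1 to 3 had 1019, 1166 and 1105 CPM of Gm42418, and libraries 4 and 5 had 52650 and 27920 CPM. Those 2 libraries thus stood above all 15 others, and Gm42418 passed no test in any comparison. Gm24245 and Gm23935 had identical counts in all 17 libraries, at 38.9 to 1107 CPM in untreated wild-type libraries, again highest in library 4, and Gm24270 equalled Gm24245 in 5 libraries, was lower in 11 and higher in 1. The processed pseudogenes Gm12895 and Gm12896, which matched no named coding gene, also had identical counts in all 17. The coding model Gm10800 was at 53.5 and 18.2 CPM in untreated wild-type libraries 4 and 5 and 17.6 CPM in CCl4-treated knockout library 3, and at most 4.02 CPM elsewhere. Without Gm42418 the members together took 13640 to 15840 CPM in CCl4-treated knockout, 12110 to 13210 CPM in untreated knockout, 13780 to 15120 CPM in CCl4-treated wild-type and 12630 to 15900 CPM in untreated wild-type libraries, on the scale of library totals.

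**Figure D2:**
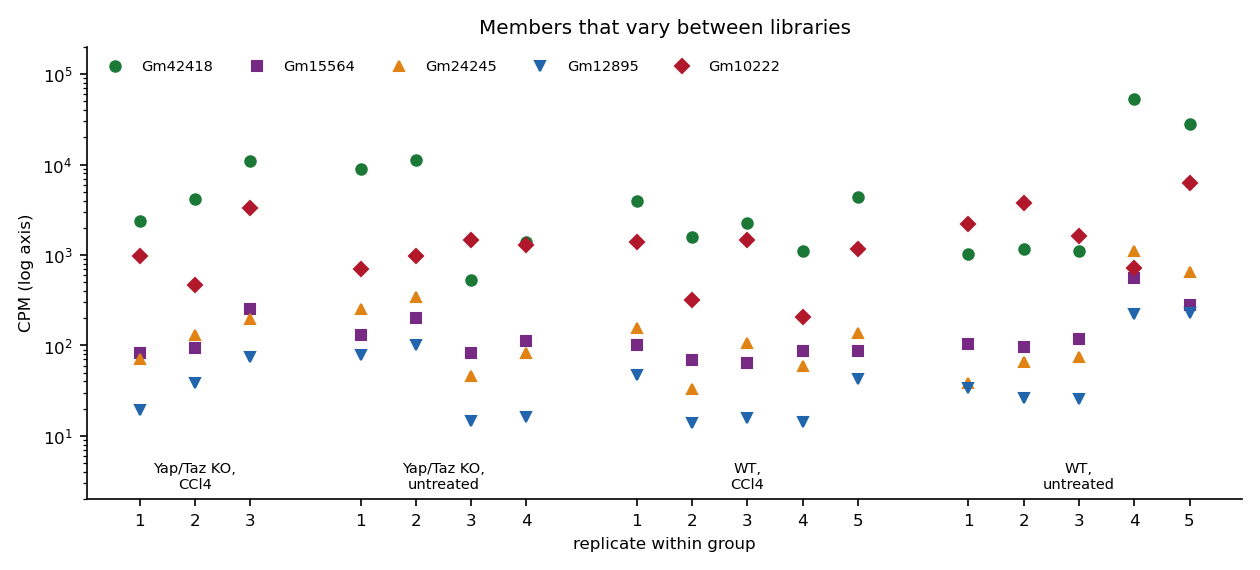
CPM on a log axis of 5 members in each of the 17 libraries, grouped by genotype and treatment: Gm42418, the antisense model Gm15564, Gm24245, Gm12895 and the mt-Nd4l copy Gm10222. In untreated wild-type libraries 4 and 5 Gm42418 reaches 52650 and 27920 CPM, against 1019 to 1166 CPM in libraries 1 to 3 of that group.

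Another 4 of the most abundant members had no call in any comparison. Gm26809, a lincRNA model 1219 bases from Lsm8, averaged 921 ± 265 CPM in CCl4-treated knockout (SD, n = 3), 838 ± 70 CPM in untreated knockout (n = 4), 839.8 ± 146 CPM in CCl4-treated wild-type and 843 ± 196 CPM in untreated wild-type libraries (n = 5 each). Gm5096, a coding model 99.36% identical to the betaine-homocysteine methyltransferase gene Bhmt, averaged 993 ± 571, 874 ± 424, 1395 ± 251 and 1004 ± 366 CPM in the same order of groups. Gm26905, a lincRNA model within the bounds of Galntl6, averaged 149.9 ± 7.15, 174 ± 34.2, 223 ± 117 and 287 ± 124 CPM, and Gm1821, a copy of the ubiquitin gene Ubb, 239.9 ± 63.7, 236 ± 26.2, 198 ± 32.6 and 208 ± 37 CPM.

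The comparison of genotypes asked which members differ when Yap and Taz are absent. In untreated hepatocytes 6 members rose and 1 fell in knockout, 7 of 258 (edgeR's quasi-likelihood test, Benjamini-Hochberg adjusted p under 0.05 over 13721 genes). Of all genes tested 0.933% were called in this comparison, 0.583% as higher and 0.35% as lower. After CCl4 10 members rose and 15 fell, 25 of 258, against 11.8% of all genes, 7.62% higher and 4.21% lower. The 6 that rose untreated also rose after CCl4: Gm9825, Gm9855, Gm10020, Gm6311, Gm15920 and Gm26825. The 1 that fell untreated, Gm4956, also fell after CCl4. Without the 2 libraries richest in mitochondrially encoded counts 13 members were called after CCl4 (8 higher, 5 lower), and without CCl4-treated knockout library 3 alone 10 were (6 higher, 4 lower). With library totals in place of TMM scaling the calls after CCl4 split into 9 higher and 9 lower. The 6 met the level rule through knockout libraries, so their number is fixed in part by the rule and is given as a description. By median CPM in place of the mean, 232 models would be members, of which none would be called untreated and 16 after CCl4. Gm26825 is a lincRNA model and the other 5 are processed pseudogenes.

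Gm9825, on chromosome 6 (7982541 to 7983383), is a copy of Rnps1, which encodes an RNA-binding protein that acts in splicing, at 99.41% identity. It had 8.73, 11.4 and 9.22 CPM in CCl4-treated knockout libraries and 14.4, 20.2, 15.4 and 7.87 CPM in untreated knockout libraries, against 0 in all 10 wild-type libraries. Every knockout library was above every wild-type library. Against a floor of 3 counts over the wild-type group, Gm9825 was at least 360-fold higher in knockout after CCl4 (adjusted p = 3.89e-05) and at least 315-fold higher untreated (adjusted p = 3.92e-05). Rnps1 had 14, 16.2 and 22.1 CPM in CCl4-treated knockout and 4.43, 4.96, 5.88 and 14 CPM in untreated knockout libraries, against 19.4 to 27 CPM in CCl4-treated and 16.7 to 28.6 CPM in untreated wild-type libraries. Untreated, Rnps1 was lower in knockout (log2 fold change -1.68 ± 0.29 SE, adjusted p = 0.00564). After CCl4 its log2 fold change was -0.36 ± 0.30 and it did not pass. The sum of Gm9825 and Rnps1 was 27.2 ± 4.33 CPM in CCl4-treated and 21.8 ± 2.62 CPM in untreated knockout libraries, against 22.3 ± 3.08 CPM in CCl4-treated and 23.4 ± 4.46 CPM in untreated wild-type libraries (SD), so the sums overlapped where the copy alone did not.

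Gm9855 (chromosome 10, 42054113 to 42055306) copies Tdg, the thymine DNA glycosylase gene, at 99.25% identity. It had 16.9, 30.2 and 14.7 CPM in CCl4-treated knockout and 13.9, 11.3, 18.6 and 16.6 CPM in untreated knockout libraries, against 0 in 4 and 0.503 CPM in the fifth CCl4-treated wild-type library and 0, 2.00, 0, 0.295 and 0 CPM untreated. The fitted log2 fold change of Gm9855 in knockout was 7.38 ± 1.11 after CCl4 (adjusted p = 0.000886) and 5.06 ± 0.98 untreated (adjusted p = 0.0153). Tdg moved the other way: it had 0.777 to 1.34 CPM in CCl4-treated and 0.838 to 1.32 CPM in untreated knockout libraries, against 10.6 to 16.3 CPM and 9.34 to 16.6 CPM in wild type, with no overlap. Its log2 fold change was -3.53 ± 0.28 after CCl4 (adjusted p = 2.37e-06) and -3.69 ± 0.25 untreated (adjusted p = 4.86e-07). Gm9855 and Tdg together came to 21.7 ± 8.48 and 16.1 ± 3.23 CPM in CCl4-treated and untreated knockout libraries, against 13.1 ± 2.09 and 14.2 ± 2.54 CPM in wild type (SD).

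Gm10020 (chromosome 15, 52477617 to 52478228) copies Rpl15, a large-subunit ribosomal protein gene, at 99.67% identity over 612 bases. It had 23.3, 43.3 and 36.7 CPM in CCl4-treated knockout and 37.6, 31.3, 27.9 and 38.7 CPM in untreated knockout libraries. In wild type it had 0.187 CPM in 1 library and 0 in 4 after CCl4, and 0.302, 0.25, 0.817, 0.295 and 0 CPM untreated, so no wild-type library came near the lowest knockout library. After CCl4 its 2068 counts in knockout and 3 in wild type gave a ratio of 1280 after division by TMM-scaled library totals (95% exact interval 436 to 6190, counting error only), and untreated its log2 fold change was 6.58 ± 0.53 (adjusted p = 1.99e-06). Rpl15 itself did not pass. Another copy of it, Rpl15-ps3, was lower in untreated knockout (log2 fold change -1.27 ± 0.23, adjusted p = 0.00637) and at -0.64 ± 0.24 after CCl4, where it did not pass. Gm10020 with 7 close copies summed to 154 ± 38.1 and 132 ± 12.4 CPM in CCl4-treated and untreated knockout libraries, against 147 ± 26.1 and 151 ± 10.1 CPM in wild type (SD).

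Gm6311 (chromosome 13, 75954136 to 75955013) copies Rps2, a small-subunit ribosomal protein gene, at 98.86% identity. It had 43.6, 3.83 and 87 CPM in CCl4-treated knockout and 10.7, 63.5, 39.6 and 51.3 CPM in untreated knockout libraries, against 0 in 9 wild-type libraries and 0.314 CPM in untreated wild-type library 3. The knockout libraries thus spread widely among themselves but all stood above wild type. Against the floor of 3 counts Gm6311 was at least 1200-fold higher in knockout after CCl4 (adjusted p = 0.000421), and untreated its log2 fold change was 8.96 ± 1.14 (adjusted p = 0.00127). Rps2 was lower in untreated knockout (log2 fold change -0.79 ± 0.16, adjusted p = 0.0186, lost without untreated knockout library 2 at an adjusted p of 0.075), and its close copy Rps2-ps10 was higher in knockout, by 2.80 ± 0.59 after CCl4 (adjusted p = 0.00628) and 3.95 ± 0.59 untreated (adjusted p = 0.00138). Gm6311 and 15 close copies summed to 539 ± 105 and 620 ± 17.3 CPM in CCl4-treated and untreated knockout libraries, against 519 ± 83.2 and 627 ± 74.5 CPM in wild type (SD).

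Gm15920 (chromosome 5, 130188395 to 130188796) copies Ndufa12, a complex I subunit gene, at 99.5% identity. It had 19.5, 13.9 and 22.4 CPM in CCl4-treated knockout and 23.7, 42.2, 35.8 and 32.9 CPM in untreated knockout libraries, against 1.68, 3.91, 0.571, 5.56 and 0.852 CPM in CCl4-treated and 3.73, 5.59, 2.76, 4.13 and 0 CPM in untreated wild-type libraries. Its log2 fold change was 2.90 ± 0.72 after CCl4 (adjusted p = 0.016) and 3.38 ± 0.70 untreated (adjusted p = 0.0238). The groups did not overlap, but the untreated call was kept in only 11 of the 17 fits that left out 1 library, with an adjusted p of up to 0.0742, and the call after CCl4 was lost without CCl4-treated knockout library 3 (adjusted p = 0.0787). Ndufa12 was not called between genotypes, and the sum of the 2 was 34.9 ± 0.252 and 66.3 ± 16.8 CPM in CCl4-treated and untreated knockout libraries, against 27.9 ± 6.97 and 40.8 ± 5.53 CPM in wild type (SD).

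Gm26825, a lincRNA model on chromosome 5 (5781530 to 5783636, plus strand), reads as the reverse complement of Hspa8, the constitutive Hsp70 chaperone gene, at 99.59% identity over 95.76% of its length, and 91.81% of its exonic bases lie opposite another model, Gm15459. It had 305, 161 and 209 CPM in CCl4-treated knockout and 407, 395, 379 and 414 CPM in untreated knockout libraries, against 5.42, 0, 0.785, 0.634 and 1.7 CPM in CCl4-treated and 0, 0, 0, 3.54 and 1.52 CPM in untreated wild-type libraries. Gm26825 was the most abundant of the 6 in knockout, with a log2 fold change of 7.07 ± 1.03 after CCl4 (adjusted p = 0.000688) and 8.57 ± 1.09 untreated (adjusted p = 0.000346). Hspa8 had 482, 554 and 552 CPM in CCl4-treated knockout, against 687, 1095, 1068, 1424 and 1330 CPM in CCl4-treated wild-type libraries, and was lower there (log2 fold change -1.08 ± 0.30, adjusted p = 0.0265, kept in 12 of the 17 fits that left out 1 library). Its untreated log2 fold change of -0.81 ± 0.27 did not pass. The sum of Gm26825, Hspa8 and its copy Gm8355 was 886 ± 117 CPM in CCl4-treated and 1040 ± 96 CPM in untreated knockout libraries (SD). In wild type the same sum was 1303 ± 338 and 1069 ± 356 CPM, so the sums overlapped where Gm26825 alone did not. Because the strand setting of the counting is not given, Gm26825 and sequence of the other strand cannot be told apart.

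**Figure D3:**
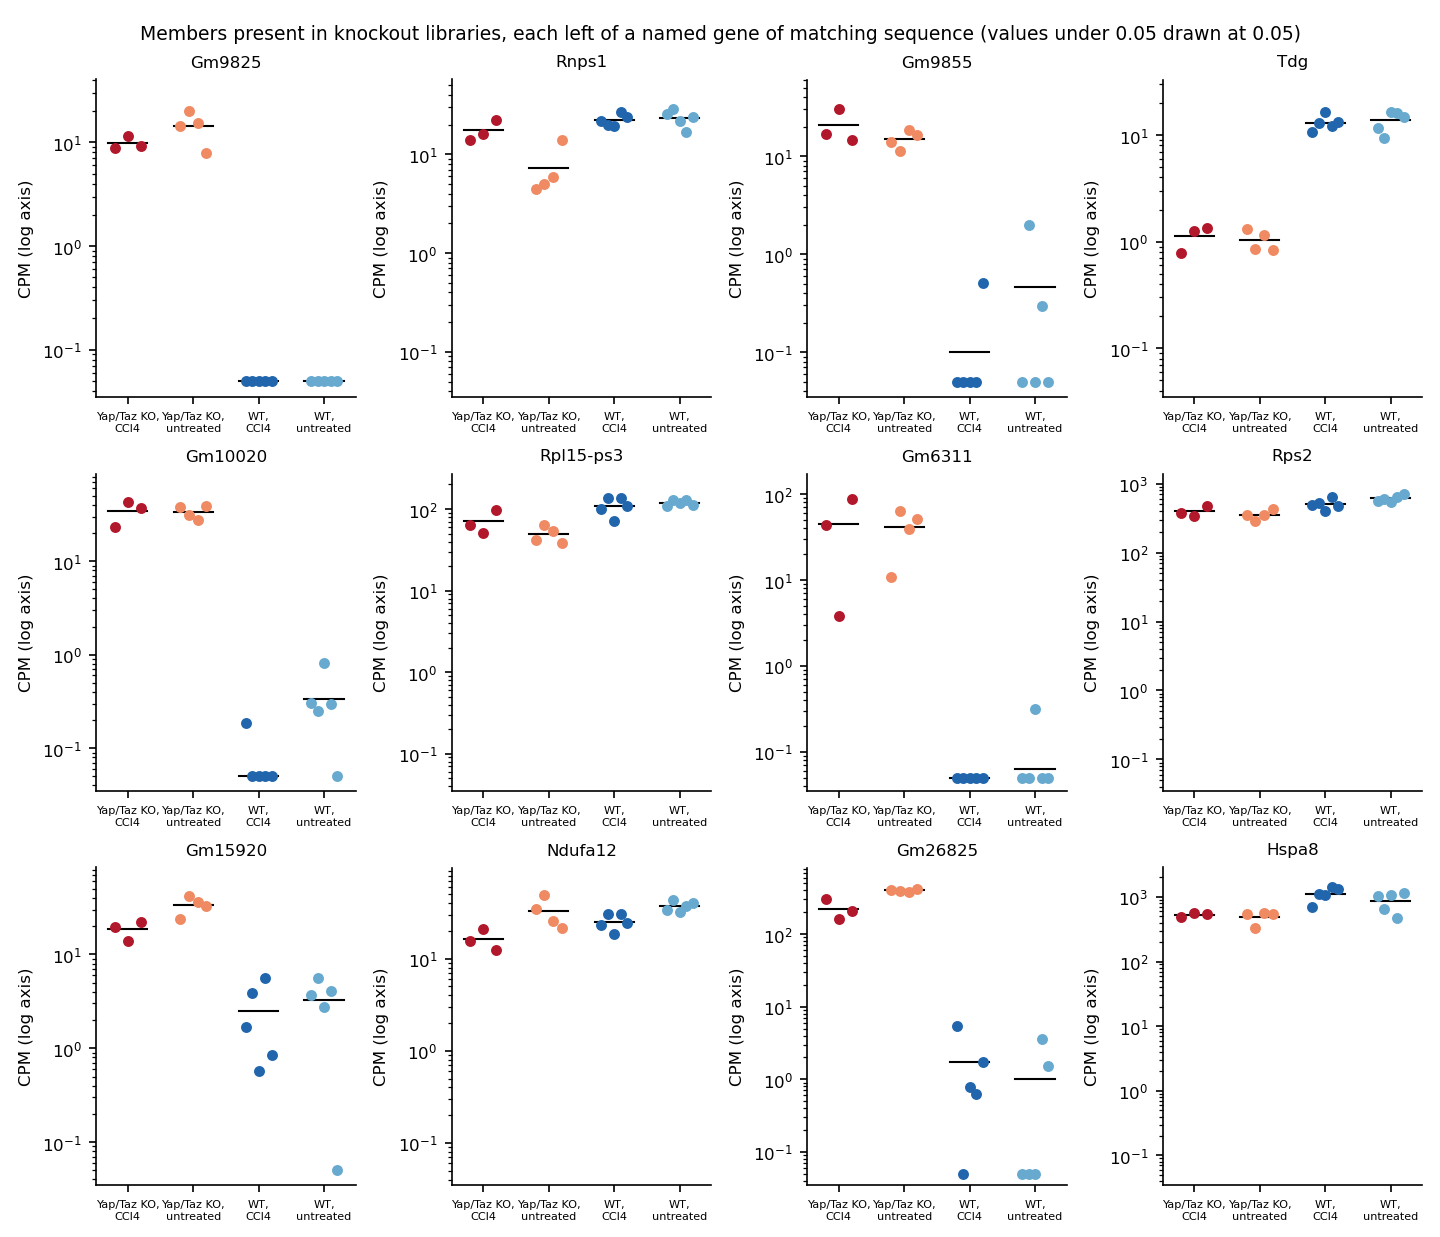
CPM (log axis) in each library of 6 members higher in knockout, each to the left of a named gene or copy of near-identical sequence, in CCl4-treated knockout, untreated knockout, CCl4-treated wild-type and untreated wild-type hepatocytes. Points are libraries, bars are group means, and values under 0.05 CPM are drawn at 0.05. Gm9825 is at 0 in all 10 wild-type libraries, and Tdg is at 0.777 to 1.34 CPM in CCl4-treated knockout, against 10.6 to 16.3 CPM in CCl4-treated wild-type libraries.

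Separation of the genotypes was also counted without a model. In 7 of 258 members (2.71%) all 7 knockout libraries lay above all 10 wild-type libraries, where the share over all genes tested was 0.466%. All 7 members met the level rule through knockout libraries, so the count is a description and nothing is read from it against that share. These were the 6 above and Gm3608, a pseudogene copy of Capza1, the gene of an actin-capping subunit, on chromosome 1. Gm3608 had 16.1, 25.4 and 28 CPM in CCl4-treated and 11.5, 9.41, 16.2 and 16 CPM in untreated knockout libraries, against 0 in 6 wild-type libraries and up to 9.34 CPM in the other 4, and was named after its values were seen. It did not pass the test, at a log2 fold change of 3.63 ± 1.42 after CCl4 (adjusted p = 0.112) and 1.84 ± 1.31 untreated (adjusted p = 0.788). In 1 member (0.388%), Gm4956, all knockout libraries lay below all wild-type libraries (0.277% of all genes). It met the level rule through wild-type libraries, so this too is a description. Of 137 close pseudogene copies whose matched gene was also tested, 5 were called between genotypes untreated, where 0.933% of all genes were. For 3 of these 5 the matched gene was called in the opposite direction. The 5 are the processed pseudogenes described above that met the level rule through knockout libraries, so these counts are a description. After CCl4 7 copies were called, where 11.8% of all genes were, with 1 matched gene called in the opposite and 1 in the same direction.

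Gm4956 is a transcribed unprocessed pseudogene on chromosome 1 (21285246 to 21298312, minus strand) near Gsta3, a glutathione S-transferase gene. It had 0.299, 0 and 0 CPM in CCl4-treated and 1.19, 2.4, 1.32 and 1.34 CPM in untreated knockout libraries, against 4.05, 16.3, 7.03, 14.2 and 2.86 CPM in CCl4-treated and 14.4, 12.8, 29.2, 14.2 and 12 CPM in untreated wild-type libraries. Its log2 fold change in knockout was -6.49 ± 0.91 after CCl4 (adjusted p = 0.000571) and -3.42 ± 0.61 untreated (adjusted p = 0.00644). None of its windows of 50 bases occurred in another annotated gene. Within knockout hepatocytes it also fell after CCl4 (-3.97 ± 0.93, adjusted p = 0.0067). Gsta3 was lower in untreated knockout (-1.28 ± 0.22, adjusted p = 0.00587) and did not pass after CCl4 (-0.73 ± 0.24, adjusted p = 0.0604).

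**Figure D4:**
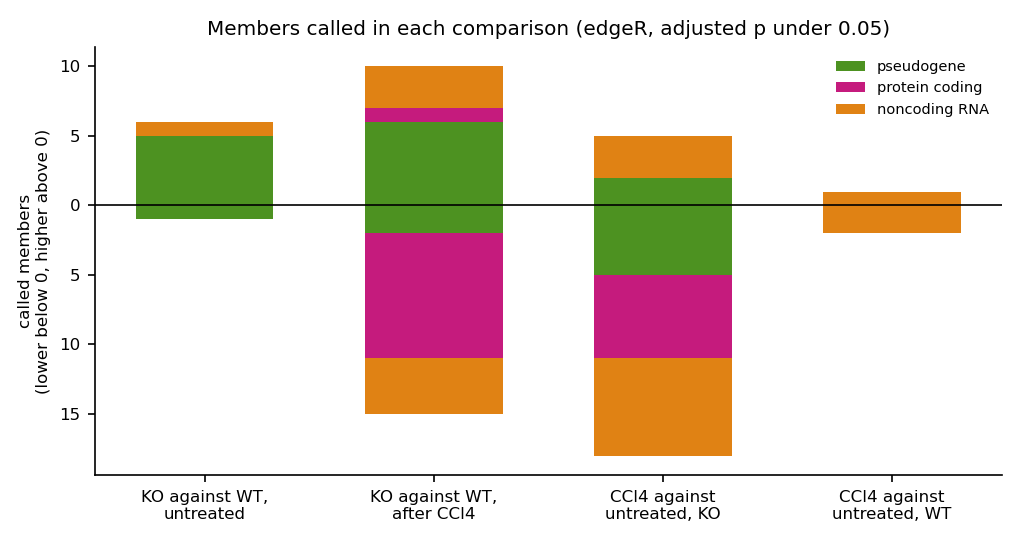
Number of members called in each of 4 comparisons, higher above 0 and lower below 0, coloured by annotated gene class. Knockout against wild type has 6 higher and 1 lower untreated and 10 higher and 15 lower after CCl4; CCl4 against untreated has 5 higher and 18 lower in knockout and 1 higher and 2 lower in wild type.

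The effect of CCl4 was asked in each genotype. In knockout hepatocytes 5 members rose and 18 fell after CCl4, 23 of 258, while 19% of all genes were called, 12.1% higher and 6.96% lower. In wild-type hepatocytes 1 member rose and 2 fell, against 0.853% of all genes, 0.576% higher and 0.277% lower. Members that met the level rule through treated or untreated libraries alone are included, so these counts are fixed in part by the rule. With library totals in place of TMM scaling the calls in knockout split into 8 higher and 11 lower, and the median log2 fold change of all genes tested was 0.20. The calls in wild type numbered 1 without library 4 or 5 of the CCl4-treated or library 1 or 3 of the untreated wild-type group, and 5 without untreated library 4. By class, 10 of 43 noncoding, 6 of 49 coding, 7 of 161 pseudogene and 0 of 5 miRNA members were called in knockout, and in wild type the 3 calls were all noncoding. The median log2 fold change of all members was -0.065 in knockout and -0.12 in wild type, beside 0.01 and -0.01 over all genes. The comparisons share libraries, since the CCl4-treated knockout group enters both its own CCl4 comparison and that with wild type, and it is also the group with the highest macrophage and stellate marker sums given above.

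Gm10680, called in both genotypes, is an antisense model on chromosome 9 (46242621 to 46243529, minus strand) of whose exonic bases 90.03% lie opposite Apoa4, the gene of apolipoprotein A-IV. It had 99.8, 131 and 278 CPM in CCl4-treated and 6.41, 29.8, 16.4 and 18.9 CPM in untreated knockout libraries. In wild type it had 31, 20.2, 18.1, 36.8 and 27.9 CPM after CCl4 and 8.57, 10.1, 4.46, 2.58 and 7.66 CPM untreated, so treated and untreated libraries did not overlap in either genotype. Gm10680 rose by a log2 fold change of 3.25 ± 0.50 in knockout (adjusted p = 0.000521) and 2.01 ± 0.42 in wild type (adjusted p = 0.0309, kept in 11 of the 17 fits that left out 1 library), and after CCl4 it was higher in knockout by 2.66 ± 0.45 (adjusted p = 0.00173). Apoa4 rose by 3.16 ± 0.31 in knockout and 1.88 ± 0.25 in wild type and was higher in knockout after CCl4 by 2.53 ± 0.28. Each value of Apoa4 was within 1 SE of the value of Gm10680 in the same comparison.

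Gm20412, a noncoding model on chromosome 2 (158117154 to 158117905, plus strand) that lies wholly opposite Tgm2, the tissue transglutaminase gene, had 7.89, 15.2 and 13.9 CPM in CCl4-treated knockout, against 3.25, 5.05, 5.61 and 1.09 CPM in untreated knockout libraries. It rose in knockout (1.71 ± 0.47, adjusted p = 0.0169), a call lost without CCl4-treated knockout library 2 (adjusted p = 0.0637) or 3 (0.0542), and Tgm2 rose by 1.72 ± 0.30 (adjusted p = 0.00104). Gm20412 was 4.99, 5.86, 3.5, 3.95 and 5.77 CPM in CCl4-treated and 2.42 to 8.53 CPM in untreated wild-type libraries, which overlapped. Gm20319, an antisense model on chromosome 16 (26714446 to 26755502, minus strand) with 49.07% of its exonic bases opposite Il1rap, the interleukin 1 receptor accessory gene, fell. It had 23, 12.2 and 16.8 CPM in CCl4-treated knockout, against 29.3, 56.4, 49 and 50.3 CPM in untreated knockout libraries, and 32.5 to 53 CPM in CCl4-treated wild-type libraries. Its log2 fold change was -1.42 ± 0.25 after CCl4 in knockout (adjusted p = 0.00115) and -1.36 ± 0.24 against wild type after CCl4 (adjusted p = 0.00229), and Il1rap gave -1.75 ± 0.24 and -1.16 ± 0.23. For all 3 of these antisense pairs the member and its partner on the other strand were called in the same direction after CCl4 in knockout. No rule is read from these pairs. Gm15638 (within Phldb2) and Gm2788 (partly opposite E2f8) were also lower after CCl4 in knockout, and values of those genes are not given here.

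Gm11223, a processed pseudogene on chromosome 4 (69925630 to 69926079, minus strand), copies Stmn1, which encodes the microtubule-destabilising protein stathmin of dividing cells, at 99.78% identity. It had 11.8, 28.2 and 9.14 CPM in CCl4-treated and 0.483, 1.2, 1.48 and 1.17 CPM in untreated knockout libraries, with no overlap, and 9.35, 4.35, 4.57, 4.15 and 4.68 CPM in CCl4-treated and 0, 0.5, 0.628, 0 and 8.09 CPM in untreated wild-type libraries. Gm11223 rose in knockout by 3.93 ± 1.11 (adjusted p = 0.0198), which was lost without CCl4-treated knockout library 2 (adjusted p = 0.0806), and Stmn1 rose by 4.41 ± 0.75 (adjusted p = 0.000969). Gm11223 met the level rule through CCl4-treated libraries, so its rise is fixed in part by the rule. The highest Gm11223 level in untreated wild type, in library 5, stood beside 27.1 CPM of Stmn1 in that library, against 1.42 to 9.88 CPM in the other 4. Gm13461, a copy of the nuclear transport GTPase gene Ran, rose by 0.79 ± 0.24 in knockout (adjusted p = 0.0282, or 0.182 without CCl4-treated knockout library 2), and Ran had 0.84 ± 0.29 and did not pass (adjusted p = 0.0548). Gm26880, a lincRNA model on chromosome 4 (146509094 to 146511764, minus strand) within the bounds of Zfp981, had 1360, 921 and 1876 CPM in CCl4-treated knockout, against 212, 336, 536 and 424 CPM in untreated knockout and 205 to 621 CPM in CCl4-treated wild-type libraries. It rose by 1.88 ± 0.51 in knockout (adjusted p = 0.0157) and was higher than in wild type after CCl4 by 1.81 ± 0.48 (adjusted p = 0.0215), and both calls were lost without CCl4-treated knockout library 3 (adjusted p = 0.0769 and 0.137).

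Among members that fell, Gm13775 and Gm13773 are processed_transcript models on chromosome 4 (61783123 to 61801286 and 60502841 to 60521169, plus strand) 854 bases from Mup19 and 881 bases from Mup1, genes of the major urinary proteins that mouse liver secretes. Gm13775 had 2.93, 0.0715 and 0.394 CPM in CCl4-treated and 5.49, 21.5, 26.4 and 14.2 CPM in untreated knockout libraries, and 4.3, 2.58, 4.28, 3.07 and 2.4 CPM in CCl4-treated and 73.5, 38, 47.9, 18.5 and 36.8 CPM in untreated wild-type libraries. Treated libraries of Gm13775 lay below untreated ones in both genotypes, with log2 fold changes of -3.94 ± 0.81 in knockout (adjusted p = 0.00304) and -3.69 ± 0.60 in wild type (adjusted p = 0.00727). Gm13775 met the level rule through untreated libraries, so its fall is fixed in part by the rule. Gm13773 fell by 3.71 ± 0.69 on the log2 scale in knockout (adjusted p = 0.00161) and by 2.44 ± 0.51 in wild type (adjusted p = 0.0309, kept in 9 of the 17 fits that left out 1 library). The log2 fold change of Mup1 was -6.12 ± 1.28 in knockout and -4.64 ± 0.94 in wild type, and that of Mup19 was -3.96 ± 1.13 and -8.49 ± 1.05.

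**Figure D5:**
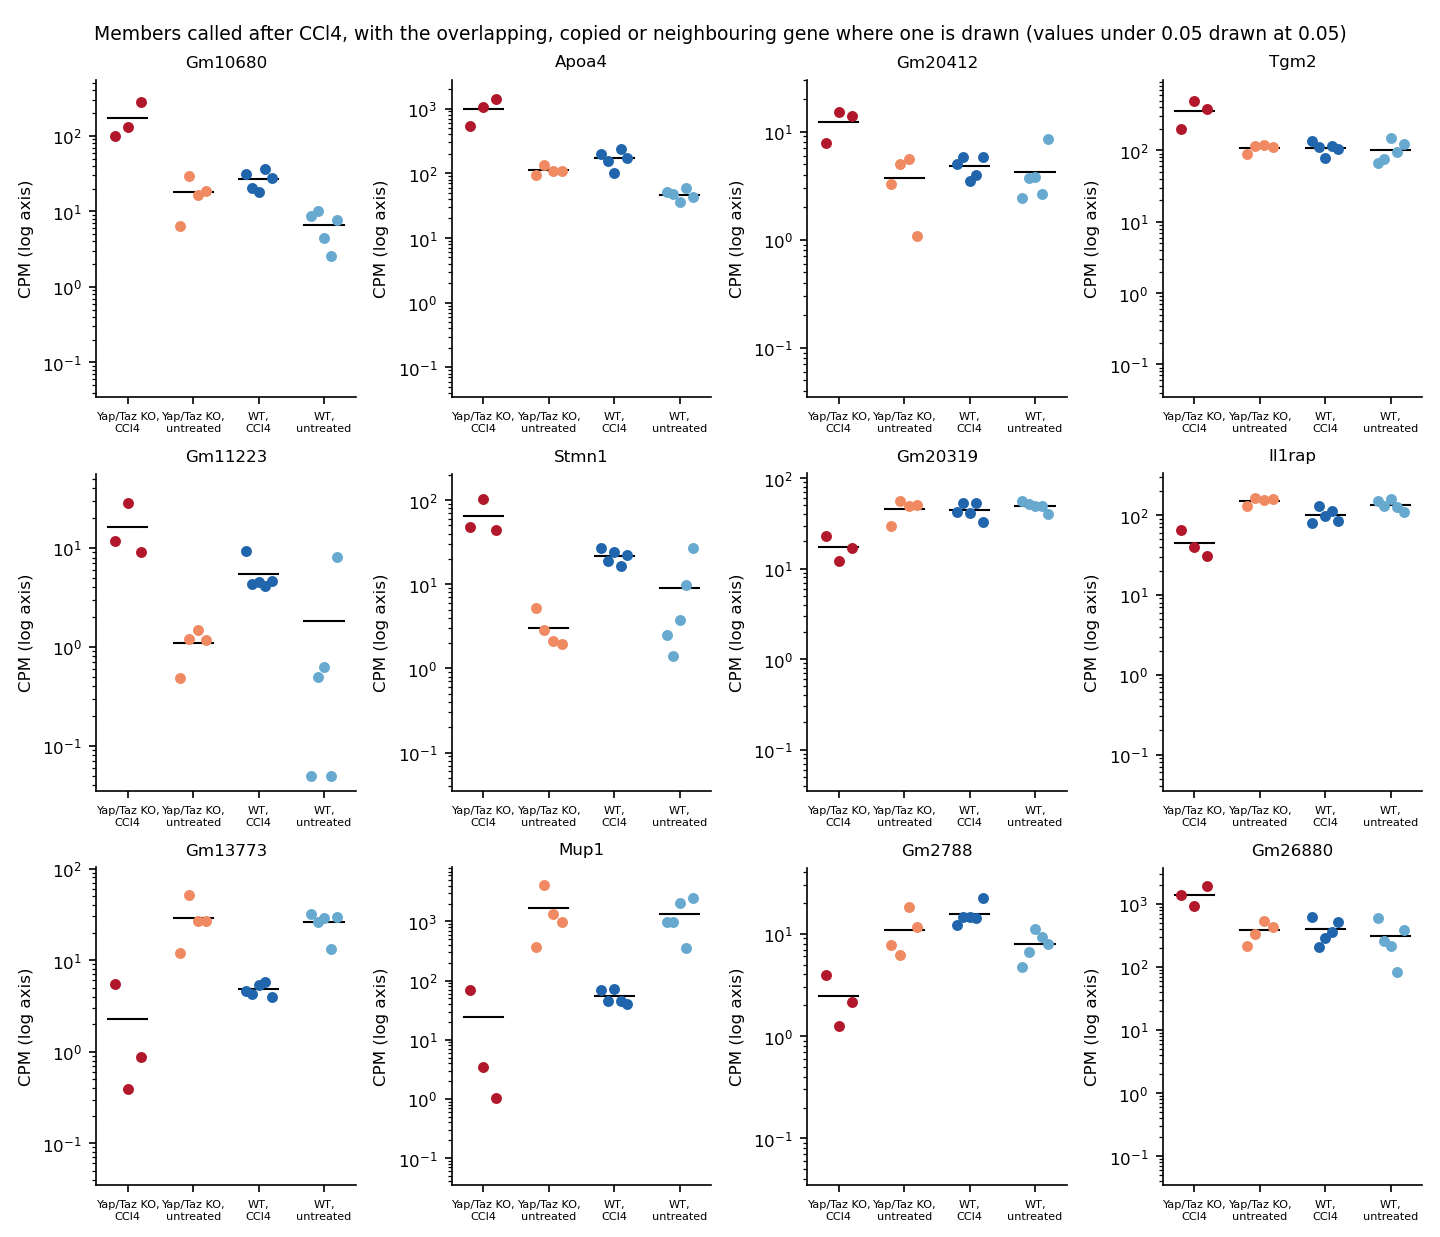
CPM (log axis) in each library of members called after CCl4 and of the overlapping, copied or neighbouring gene of 5 of them, in CCl4-treated knockout, untreated knockout, CCl4-treated wild-type and untreated wild-type hepatocytes. Points are libraries, bars are group means, and values under 0.05 CPM are drawn at 0.05. Gm10680 is at 99.8 to 278 CPM in CCl4-treated knockout and 6.41 to 29.8 CPM in untreated knockout libraries.

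Coding models made up 6 of the 18 falls in knockout. Gm20547, a model that shares all of its exonic bases with genes of its own strand, chiefly the complement factor B gene Cfb, was at 0 in all 3 CCl4-treated knockout libraries, against 0.351, 15.2, 0 and 19.9 CPM in untreated knockout and 11.2, 19.8, 13.9, 21.1 and 8.59 CPM in CCl4-treated wild-type libraries. Against a floor of 3 counts over the 3 libraries Gm20547 was at least 126-fold lower than in untreated knockout (adjusted p = 0.0499) and at least 277-fold lower than in wild type after CCl4 (adjusted p = 0.0464), but each call was kept in 4 of the 17 fits that left out 1 library. Gm20547 was also at 0 in untreated wild-type libraries 2 and 5 and in untreated knockout library 3, and Cfb passed no test.

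Gm21887, annotated on the X, and Gm47283, annotated on the Y chromosome, are coding models that fell in knockout after CCl4. Of the sequence windows used above, 100% of those of Gm21887 and 60.3% of those of Gm47283 also occurred in another annotated gene. The locus behind the counts of these models is therefore uncertain. Gm21887 had 0, 0.0715 and 0.236 CPM in CCl4-treated and 20, 6.76, 2.58 and 5.19 CPM in untreated knockout libraries, and 3.3, 3.97, 3.17, 2.78 and 8.67 CPM in CCl4-treated and 48, 99.6, 11.2, 1.7 and 92.9 CPM in untreated wild-type libraries. It fell by 6.51 ± 1.5 on the log2 scale in knockout (adjusted p = 0.00606), and against wild type after CCl4 the log2 fold change was -5.52 ± 1.49 (adjusted p = 0.0246). Gm47283 had 0, 0.143 and 0.551 CPM in CCl4-treated and 4.34 to 20.1 CPM in untreated knockout libraries, against 3.49 to 9.64 CPM in CCl4-treated wild-type libraries, with log2 fold changes of -5.53 ± 1.35 (adjusted p = 0.00866) and -4.77 ± 1.33 (adjusted p = 0.0287). In untreated wild-type libraries Gm47283 ranged from 1.55 to 133 CPM. The calls against wild type were kept in 14 of the 17 fits that left out 1 library for Gm21887 and in 13 for Gm47283. Both models met the level rule through libraries other than the CCl4-treated knockout ones, so their falls are fixed in part by the rule.

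Gm4737, a coding model on chromosome 16 (46152985 to 46155077, minus strand), is 99.66% identical to Ahcy, the S-adenosylhomocysteine hydrolase gene. It had 404, 283 and 259 CPM in CCl4-treated knockout, against 1186, 688, 539, 1017 and 676 CPM in CCl4-treated wild-type libraries, and was lower there (log2 fold change -1.38 ± 0.29, adjusted p = 0.00603), a call lost without CCl4-treated knockout library 3 (adjusted p = 0.0523). Ahcy had a log2 fold change of -1.10 ± 0.41 in that comparison and did not pass (adjusted p = 0.0972). Gm15638, an antisense model within Phldb2 on chromosome 16, was lower in CCl4-treated knockout than in CCl4-treated wild-type libraries (-1.95 ± 0.48, adjusted p = 0.0148) and than in untreated knockout (-1.56 ± 0.48, adjusted p = 0.0321), and both calls were lost without CCl4-treated knockout library 3 (adjusted p = 0.0796 and 0.0902) or 2. Gm10319, an unprocessed pseudogene related to Mug2, a murinoglobulin gene, fell in knockout after CCl4 (-2.17 ± 0.71, adjusted p = 0.0404), a call lost without CCl4-treated knockout library 2 (adjusted p = 0.154) or 3 (0.153). The other 8 members that fell in knockout had log2 fold changes of -1.88 to -0.76, and the other 7 that were lower than in wild type after CCl4 had -1.19 to -0.62. The 2 further members higher in knockout than in wild type after CCl4, Gm20458 and Gm9761, had 1.18 and 0.87.

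A single member passed the test of whether the CCl4 effect differs between genotypes, 1 of 258, against 1.09% of all genes, 0.794% higher and 0.299% lower. At an unadjusted p under 0.05 the numbers were 25 of 258 members and 2343 of all 13721 genes tested. Gm2788, a processed_transcript model on chromosome 7 (48877958 to 48913040, plus strand), spans parts of Nav2 and, on the opposite strand, E2f8, which encodes a repressor of cell-cycle genes. It had 3.95, 1.25 and 2.13 CPM in CCl4-treated and 7.73, 6.25, 18.1 and 11.7 CPM in untreated knockout libraries, and 12.2, 14.7, 14.7, 14.1 and 22.2 CPM in CCl4-treated and 4.74, 6.67, 11.2, 9.29 and 7.95 CPM in untreated wild-type libraries. All treated knockout libraries were below, and all treated wild-type libraries above, the untreated libraries of their genotype. The log2 fold change of Gm2788 after CCl4 was -2.18 ± 0.43 in knockout (adjusted p = 0.00237) and 0.96 ± 0.33 in wild type (adjusted p = 0.179), and the difference was -3.14 ± 0.54 (adjusted p = 0.0316). After CCl4 it was lower in knockout than in wild type by a log2 fold change of -2.69 ± 0.43 (adjusted p = 0.0012). The call on the difference was kept in 8 of the 17 fits that left out 1 library, with an adjusted p of up to 0.0699, and 10 members were called without CCl4-treated knockout library 1.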

How the data were processed

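RNA of sorted mouse hepatocytes was measured by RNA-seq of total RNA in 17 libraries, and the authors deposited 1 table of raw counts per gene. Per the submitters' processing notes, reads were checked with FastQC and aligned with STAR 2.4.1d to mm10, with DESeq2, edgeR and limma also named. For the counting tool, its treatment of multiply mapping reads and its strand setting, the sources used here give nothing.

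Groups were taken from the labels, which say that replicate numbers pair no samples. Nothing in the labels says that each library is its own animal, so p-values measure the spread between these libraries, which may be technical. The members and gene lists were chosen with earlier results of these data known.

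From the deposited counts, CPM, log2 fold changes and their standard errors were computed with edgeR 4.0.16 in R 4.3.3 (each standard error being the log2 fold change divided by the square root of F; filterByExpr with a minimum count of 10 and total of 15, TMM scaling, robust quasi-likelihood F test), with 1 fit over 17 libraries and Benjamini-Hochberg adjustment over 13721 genes. Calls were made below an adjusted p of 0.05, and all 258 members passed the filter. The procedure was tested on simulated data. Library totals of 11266420 to 24775863 counts set the precision at low levels, and bounds and intervals (95%) cover counting error only. Gene types, positions and transcripts came from GENCODE M21 (GRCm38/mm10), and copies were found with blastn 2.17.0.

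Members named in the text are the 12 of highest mean CPM, the called members of each comparison (up to 16, otherwise the 8 largest rises and 8 largest falls), the called members of the difference of CCl4 effects, the 3 models on either side of the threshold and the 4 with the largest share in 1 library, each with its matched, overlapping or neighbouring gene. Of these, 1 member named by this rule is not reported here. Gm3608, Gm24245, Gm12895, Gm12896, Gm20458 and Gm9761 were named besides, after their values were seen, as were gene copies set beside a member. Alternatives were RLE size factors, library totals alone, no filter, DESeq2 1.42.0, limma 3.58.1 voom, a replicate block, each library left out, a median rule, mitochondrially encoded genes left out and a fit of the compared groups alone. Leaving out the 2 libraries richest in mitochondrial counts, or in Gm42418, was added after seeing the data.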

Additional observations from a re-analysis of the deposited data

Results flagged for a closer look

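Of 94 groups of 4 or 5 libraries of named members that reached 5 CPM in at least 1 library, 7 had 1 library far from the others by the gap at its end of the range, where chance gives about 1 in 20. Gm5096 reached 1840.0 CPM in CCl4-treated wild-type library 4. Gm11223 stood at 9.35 CPM in CCl4-treated wild-type library 1 and at 8.09 CPM in untreated wild-type library 5. Gm20412 stood at 8.53 CPM in untreated wild-type library 5. Gm21887 stood at 8.67 CPM and Gm2788 at 22.2 CPM in CCl4-treated wild-type library 5. Gm4956 stood at 29.2 CPM in untreated wild-type library 3.

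The CCl4 effect on Gm2788 differed between genotypes, with a difference of -3.14 on the log2 scale by a test of the difference itself (edgeR's quasi-likelihood test, adjusted p = 0.0316).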

How the results depend on the processing

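Under 27 alternative settings, 44 results on named members gave 1186 values: 1048 kept their direction and side of the threshold, 138 kept the direction but lost the call, and 0 turned round. Leaving out CCl4-treated knockout library 3 lost 14 of the 44 calls, the 2 libraries richest in mitochondrial counts 11, and CCl4-treated knockout library 2 10. Counts of called members are given as higher and lower. After CCl4 in wild type (3 called), library totals alone gave 7 (3 and 4), DESeq2 8 (1 and 7), leaving out the 2 libraries richest in mitochondrial counts 5, leaving out the 2 with the most Gm42418 6, and leaving out 1 library 1 to 5. After CCl4 in knockout (23), a fit of the compared groups alone gave 12 (3 and 9), and leaving out 1 library 20 to 28. Between genotypes untreated (7), DESeq2 gave 11 (6 and 5), the median rule 0, and leaving out 1 library 6 to 10. By edgeR, 26 of the 258 members and 1203 of all 13721 genes tested were at an unadjusted p under 0.05 in that comparison. Between genotypes after CCl4 (25), the median rule gave 16 (3 and 13), leaving out the libraries richest in mitochondrial counts 13 (8 and 5), and leaving out 1 library 10 to 29, with limma voom at 13 higher and 12 lower. In the difference of CCl4 effects (1), DESeq2 gave 11 (2 and 9), either pair of libraries left out 0, and leaving out 1 library 0 to 10. With the replicate block the counts were 1, 22, 7, 19 and 0 in that order, and the labels pair no samples. Library totals alone moved the median log2 fold change of all genes to 0.38 after CCl4 in wild type, 0.20 in knockout, 0.14 between genotypes untreated and -0.16 in the difference, and DESeq2 moved the difference to 0.19. The causes were not tested.

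Depth limits what can be seen of members at a few counts, and no depth resolves copies of identical sequence.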
